A study of Mus musculus with 15 samples.

Results

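The genes described here are 41 interferon-stimulated genes of the mouse, among 55335 gene identifiers counted in RNA of cultured pre-B cells. They were listed by name as genes known to be induced by interferon, and not by a rule on their values in these libraries. Earlier results of these data were known when they were listed. All 41 were found in the count tables. Of these, 29 had enough reads to be tested (edgeR's filterByExpr) and 12 did not. Between Msl2 knockout and wild-type libraries, 1 of the 29 tested genes was called: Gbp3, a guanylate-binding protein, was lower in the knockout libraries. Both genotypes held few or no counted reads of the interferon genes themselves and of antiviral members such as Ifit1 and Rsad2.

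Interferons are secreted proteins that cells release on sensing a virus or foreign nucleic acid. They bind receptors on the same or neighbouring cells, whose kinases JAK1, JAK2 and TYK2 phosphorylate STAT proteins. A complex of STAT proteins with IRF9 binds the interferon-stimulated response element (ISRE), and the gamma-activated site (GAS) is a second element bound by STAT proteins. The genes switched on this way sense RNA, block translation, degrade or edit RNA, or attack the vacuoles of intracellular microbes. Many cells also keep a low, constant level of some of these genes in the absence of infection.

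RNA was measured in libraries titled MSL2KO-preB (3) and in libraries titled MSL2WT-preB (3). MSL2 is the ubiquitin ligase subunit of MSL, a chromatin complex whose acetyltransferase MOF (KAT8) modifies histone H4 at lysine 16. The comparison asks which genes differ when Msl2 is disrupted by CRISPR/Cas9. Both genotypes carry a knockout of Slp65 (gene symbol Blnk, an adaptor of pre-B cell receptor signalling), derive from SLP65KO bone marrow cells grown up from 1 cell, were kept in medium with interleukin 7, and received no treatment. The sources used here name no age and no interferon, virus or other inducer. Per genotype there is 1 line, so the p-values measure the spread between libraries, which may be technical, and differences between 2 lines that arose apart from the Msl2 edit cannot be told apart from it. In bulk RNA, fewer cells of a kind and less RNA per cell cannot be told apart either.

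The genotype tags of the labels say the opposite of the titles for all 6 RNA libraries. Groups follow the titles, and every direction given here turns round if the tags are right. The RNA of Msl2 does not decide between them, since it was present in both groups. It was at 105, 103 and 121 CPM in the knockout libraries, against 97.2, 99.3 and 92.3 CPM in the wild-type libraries (log2 fold change 0.19 ± 0.08, SE, adjusted p = 0.302, edgeR). CPM are reads scaled to 1 common library size by TMM, and are not corrected for gene length, so levels are compared between libraries and not between genes. Blnk RNA averaged 112 ± 4.1 CPM in knockout and 98.3 ± 19 CPM in wild-type libraries (SD, n = 3 each).

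Total counts were between 15250975 and 20803227 in the knockout libraries and between 14092278 and 17437198 in the wild-type libraries. A gene without a read in 1 library is thereby limited to between 0.141 and 0.212 CPM (3 reads), for counting error only. The counts of wild-type library 2 differed less from those of knockout library 2 (chi-square over degrees of freedom, 11.6) than from those of wild-type library 3 (14.7). Within groups, the closest pair was knockout libraries 2 and 3 (6.53), and knockout libraries 1 and 3 were the farthest apart (17.5). The 9 B lineage markers summed to between 3228 and 3290 CPM in knockout and between 3113 and 3436 CPM in wild-type libraries, and none was called. Of 9 myeloid markers 1 was tested, with sums of 0.751 to 2.36 CPM in knockout and 1.46 to 1.98 CPM in wild-type libraries, and Lyz2 and Elane were at 0. The 6 markers of plasmacytoid dendritic cells, a main source of type I interferon, summed to 7.52 to 14.1 CPM in knockout and 12.9 to 17.1 CPM in wild-type libraries, with Siglech at 0 and Lair1 called lower in the knockout libraries. T and NK markers (11) summed to 3.3 to 4.6 CPM in knockout and 2.06 to 4.68 CPM in wild-type libraries, with Ncr1, Nkg7 and Gzma at 0. Erythroid markers (6) summed to 131 to 190 CPM in knockout and 144 to 168 CPM in wild-type libraries, with Hba-a2 at 0. The part of such cells in the results was not tested.

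Promoters of the members were searched for both elements. A RefSeq promoter window (250 bases before to 50 bases after the start, build GRCm38.p6) was at hand for 29 of the 41 members. The ISRE core, searched as GAAANNGAAA on both strands, occurred in 17 of these (58.6%), against 1079 of 27025 genes of the same table (3.99%). The GAS, searched as TTCNNNGAA, occurred in 11 members (37.9%), against 2582 genes (9.55%). Both kinds of member held the ISRE core: 14 of 23 tested members (60.9%) and 3 of 6 members below the filter (50%). The GAS occurred in 11 of the 23 tested members (47.8%) and in 0 of the 6 below the filter. Shown are stretches of 60 bases, 5′ to 3′ on the strand of the gene. They come from 3 members with at most 18 reads in a library (Ifit1, Ifit3 and Isg15) and 3 guanylate-binding proteins with more reads. Capitals mark the ISRE core, which lies on the other strand where they begin with TTTC, and longer runs of capitals are overlapping matches.

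Ifit1: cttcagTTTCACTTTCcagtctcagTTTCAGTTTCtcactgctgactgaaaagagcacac
Ifit3: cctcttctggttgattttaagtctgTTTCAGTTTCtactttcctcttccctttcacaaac
Isg15: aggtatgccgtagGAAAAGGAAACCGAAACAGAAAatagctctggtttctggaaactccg
Gbp2: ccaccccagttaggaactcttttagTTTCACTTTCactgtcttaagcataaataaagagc
Gbp3: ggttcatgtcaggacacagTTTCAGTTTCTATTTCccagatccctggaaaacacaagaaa
Gbp7: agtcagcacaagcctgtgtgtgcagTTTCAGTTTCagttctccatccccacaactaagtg

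Their positions in GRCm38.p6 are chr19:34640779-34640838 (Ifit1, plus strand), chr19:34583382-34583441 (Ifit3, plus), chr4:156200850-156200909 (Isg15, minus), chr3:142620579-142620638 (Gbp2, plus), chr3:142559980-142560039 (Gbp3, plus) and chr3:142530258-142530317 (Gbp7, plus). The letters TTTCAGTTTC stood before the starts of Ifit1, Ifit3, Gbp3 and Gbp7 alike, although Ifit1 had 0 to 1 read per library and Gbp7 had 2175 to 3692. A match describes the letters and is no measured site.

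The 12 members below the filter are Mx1, Mx2, Ifit1, Ifit3, Rsad2, Oas2, Oasl1, Oasl2, Ifi44, Rtp4, Iigp1 and Zbp1. Together they had 35, 25 and 19 reads in knockout libraries 1, 2 and 3, against 15, 34 and 12 reads in wild-type libraries 1, 2 and 3. At these depths no difference was detectable, and the groups overlapped. For 11 of the 12, no library had more than 7 reads.

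Mx1, a gene of the dynamin-like GTPases that trap viral nucleocapsids, had no read in any library. RefSeq annotates both Mx1 and Mx2 as transcribed pseudogenes, and the other members below the filter as protein-coding. Mx2 had 0, 1 and 1 reads in knockout libraries, against 0, 1 and 0 in wild-type libraries. Ifit1, which binds viral RNA lacking a cap methylation, had no read in the knockout libraries, against 1, 1 and 0 in the wild-type libraries. Rsad2, the radical SAM enzyme viperin, had 4, 1 and 0 reads in knockout libraries, against 0, 2 and 0 in wild-type libraries. These genes were thus at or near 0 in both genotypes. Ifi44 had no read in knockout libraries, against 1, 0 and 0 in wild-type libraries. Rtp4 had 0, 1 and 0 reads in knockout libraries, against none in wild-type libraries. Iigp1, a GTPase of the immunity-related family, had 3, 0 and 0 reads in knockout libraries, against 0, 1 and 0 in wild-type libraries. All 3 of these were present in at most 1 library of a group.

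Ifit3, a partner of Ifit1, had 2, 7 and 3 reads in knockout libraries, against 1, 2 and 0 in wild-type libraries. Oasl2, a 2′-5′-oligoadenylate synthetase-like protein, had 7, 5 and 4 reads in knockout libraries, against 1, 3 and 2 in wild-type libraries. Oasl1, known as a repressor of Irf7 translation in mice, had 5, 3 and 4 reads in knockout libraries, against 1, 3 and 1 in wild-type libraries. For Ifit3 and Oasl1 the groups touched at 1 value, and for Oasl2 all knockout libraries had more reads than all wild-type libraries. In a fit without a filter on low counts, which tested 40 of the 41 members, none of the 12 was called. Oas2, which makes 2′-5′-oligoadenylates, had 4, 3 and 1 reads in knockout libraries, against 4, 5 and 4 in wild-type libraries. Zbp1, a sensor of left-handed nucleic acid, had 10, 4 and 6 reads in knockout libraries, against 6, 16 and 5 in wild-type libraries, and its highest value was that of wild-type library 2.

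**Figure D1:**
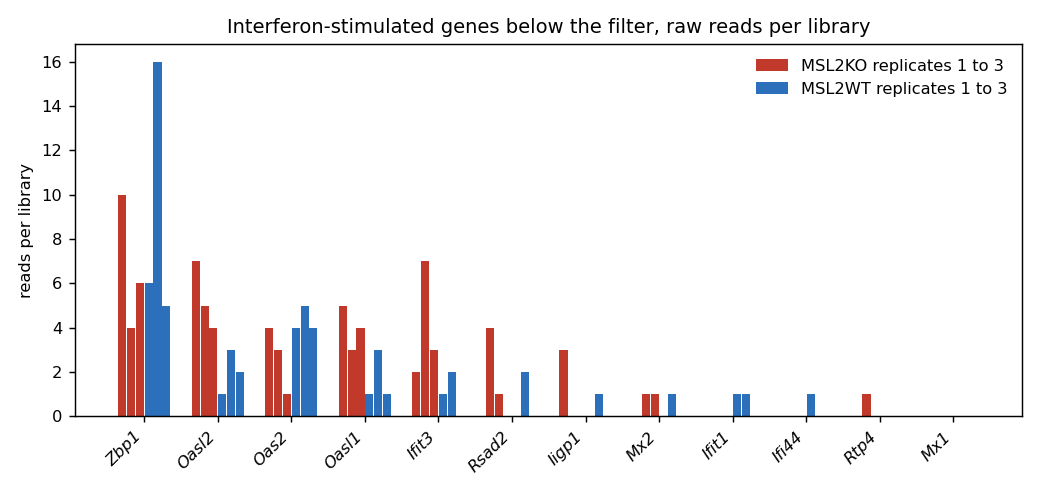
Raw reads (vertical axis, 1 bar per library) of the 12 members that did not pass the filter on low counts, with the 3 MSL2KO libraries left of the 3 MSL2WT libraries for each gene. No library exceeds 16 reads, and Mx1 has none.

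The 29 tested members differed in both directions. Of these, 13 had a positive log2 fold change (knockout over wild type) and 16 a negative one, from -0.69 to 0.74, with a median of -0.004 beside 0.004 over all 13077 tested genes. By edgeR's quasi-likelihood test with Benjamini-Hochberg adjustment over all tested genes, 0 members were called higher and 1 lower at an adjusted p under 0.05. That is 3.45% of the tested members, near the 4.59% of all tested genes called (1.8% higher, 2.79% lower). At an unadjusted p under 0.05, 2 members were higher (Samd9l and Gbp9) and 4 lower (Gbp3, Gbp7, Adar and Irf1), where 15.4% of all tested genes reached it (6.94% higher, 8.43% lower). The libraries of the groups did not overlap for 9 members (31%, beside 20.9% of all tested genes), of which 2 were higher (9.68% of all tested genes) and 7 lower (11.2%) in the knockout libraries.

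The test bounded most members closely. For 25 of the 29, the 95% interval of the fold change lay within 2-fold in either direction, as it did for 80.5% of all tested genes. The exceptions were Irf7, Isg15, Oas3 and Gbp9. Counts simulated at the depths and spread of these libraries were recovered in 50.7% of 67 genes changed 1.5-fold, 74.6% of 67 changed 2-fold and 98.4% of 64 changed 4-fold.

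Summed over the 29 tested members, the level was 838, 783 and 751 CPM in knockout libraries 1, 2 and 3, against 826, 902 and 876 CPM in wild-type libraries 1, 2 and 3. The groups overlapped, with knockout library 1 above wild-type library 1. Within the knockout group, library 1 held the highest value of 19 of the 29 members, library 2 of 6 and library 3 of 4. In the wild-type group the highest value was in library 1 for 8 members, in library 2 for 9 and in library 3 for 12. The members' median deviation from their mean over all 6 libraries was 0.11 on the log2 scale in knockout library 1, and between -0.06 and 0.05 in the other 5 libraries.

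**Figure D2:**
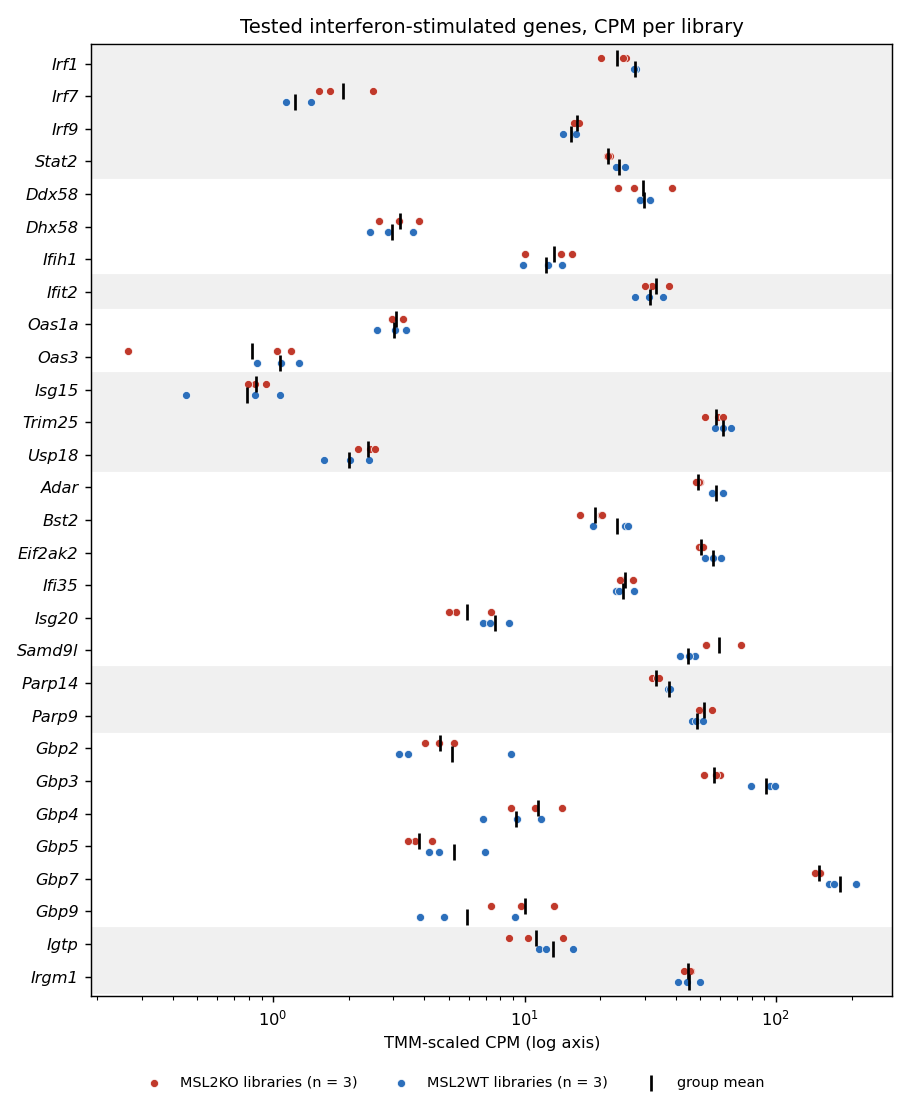
CPM (horizontal log axis) of the 29 tested members, grouped by role in shaded bands, with 1 point per library, MSL2KO above MSL2WT for each gene, and a tick at each group mean. The groups are apart for Gbp3, the member called, with 51.9 to 59.8 CPM in MSL2KO and 79.7 to 98.9 CPM in MSL2WT libraries.

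Guanylate-binding proteins are GTPases that assemble on pathogen vacuoles and bacteria, and 6 of them are members. Gbp3 (ENSMUSG00000028268.14, chromosome 3, 142560016 to 142573213, GRCm38.p6, protein-coding) was the called member. It was at 59.8, 57.9 and 51.9 CPM in knockout libraries, against 79.7, 95 and 98.9 CPM in wild-type libraries. Every knockout library lay below every wild-type library. The means were 56.5 ± 4.1 CPM in knockout and 91.2 ± 10 CPM in wild-type libraries (SD, n = 3 each). The log2 fold change was -0.69 ± 0.10 (SE; adjusted p = 0.00294, edgeR). The 95% interval ran from -0.90 to -0.47, and the call held in all 14 alternatives, with adjusted p from 5.35e-11 to 0.0341. The lowest of these came from the fit without a filter on low counts. When 1 library was left out, the adjusted p was 0.00221 to 0.0136 (edgeR).

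Gbp7, which lies next to Gbp3, was at 150, 150 and 143 CPM in knockout libraries, against 162, 208 and 169 CPM in wild-type libraries. The groups did not overlap, and wild-type library 2 was the highest. The log2 fold change was -0.28 ± 0.10 (SE, adjusted p = 0.157, edgeR), and -0.17 without wild-type library 2. Without a filter on low counts it was called (log2 fold change -0.289, adjusted p = 0.0341). Gbp5, which also promotes inflammasome assembly, was at 3.67, 4.27 and 3.43 CPM in knockout libraries, against 4.17, 6.94 and 4.58 CPM in wild-type libraries. These groups overlapped by 1 library, and the log2 fold change was -0.46 ± 0.24 (SE, adjusted p = 0.406), or -0.20 without wild-type library 2. Gbp2 was at 5.22, 4.55 and 4.03 CPM in knockout libraries, against 3.18, 8.8 and 3.45 CPM in wild-type libraries. Its wild-type values span both sides of the knockout ones, and its log2 fold change of -0.18 (adjusted p = 0.901) became 0.47 without wild-type library 2.

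Gbp9 had the largest positive log2 fold change of the members. It was at 13.1, 9.72 and 7.33 CPM in knockout libraries, against 4.8, 9.14 and 3.85 CPM in wild-type libraries. The groups overlapped through wild-type library 2. The log2 fold change was 0.74 ± 0.31 (SE, adjusted p = 0.275, edgeR), and without wild-type library 2 it was 1.21 with an adjusted p of 0.0395. It was also called with all 6 libraries and no filter on low counts (adjusted p = 0.00212), at the same log2 fold change of 0.74. The unadjusted p of Gbp3 fell in that fit too (edgeR, 2.97e-05 to 4.29e-13), while that of Stat2 rose (0.144 to 0.237). Calls gained there at an unchanged fold change are no added evidence. Gbp9 was not called without both libraries numbered 2 (log2 fold change 1.24, adjusted p = 0.0735). Gbp4 was at 14.1, 11 and 8.84 CPM in knockout libraries, against 9.33, 11.7 and 6.83 CPM in wild-type libraries, with overlap and a log2 fold change of 0.28 ± 0.22 (SE, adjusted p = 0.645). Gbp4 had 0.49 without wild-type library 2, 0.10 without knockout library 1 and 0.105 without wild-type library 3.

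The 2 gene clusters of this family had opposite signs. These clusters, and those named further on, were picked after their values were seen and carry no test. On chromosome 3, in the order Gbp5, Gbp7, Gbp3, Gbp2b and Gbp2, the 4 tested genes all had a negative log2 fold change, with a median of -0.38, and Gbp2 lost that sign without wild-type library 2. Their reads summed to 218, 217 and 203 CPM in knockout libraries, against 249, 319 and 276 CPM in wild-type libraries, without overlap. Most of these sums came from Gbp7 and Gbp3 (means of 180 and 91.2 CPM in wild-type libraries), which each separated the groups. Gbp5 and Gbp2 overlapped between groups. On chromosome 5, the 3 tested genes Gbp8, Gbp9 and Gbp4 all had a positive one, with a median of 0.64, and sums of 31.6, 22.7 and 18.4 CPM in knockout libraries, against 16.2, 23.5 and 11.4 CPM in wild-type libraries. These sums overlapped. How reads matching several of these similar genes were counted is not given in the sources used here, so the split between neighbours is uncertain.

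**Figure D3:**
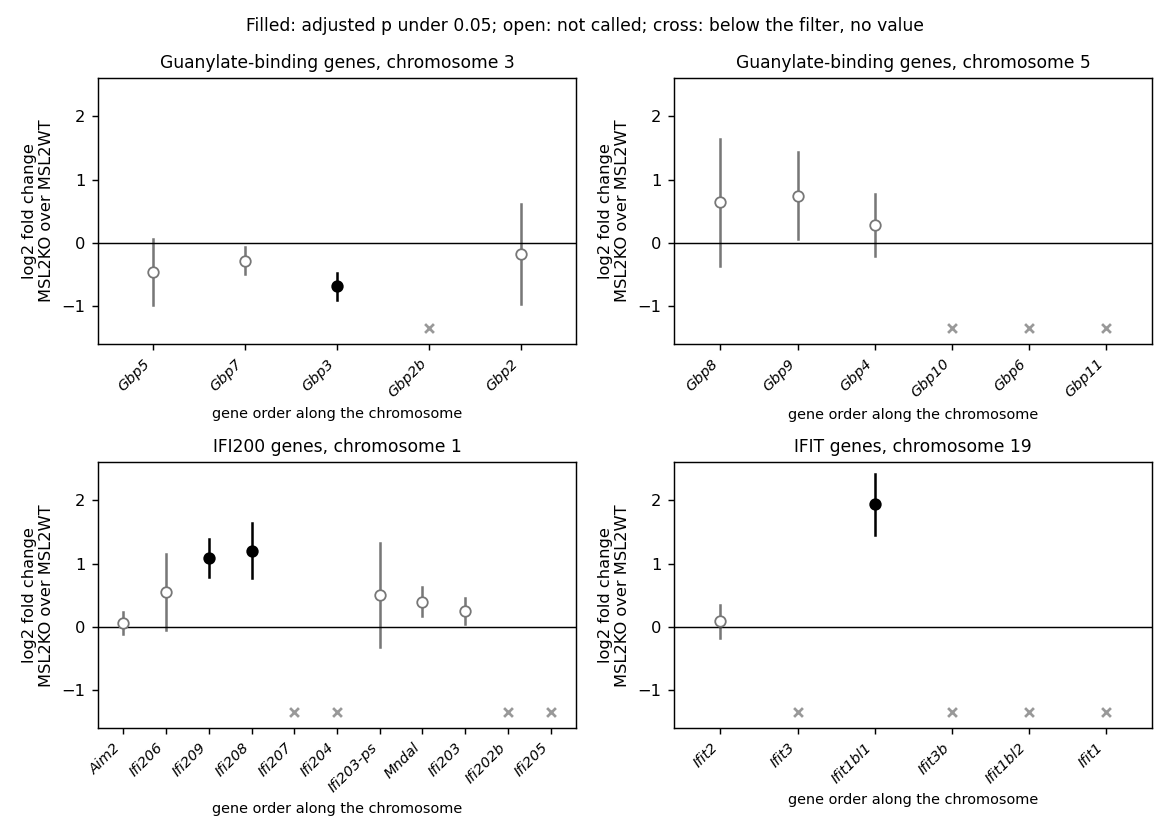
Log2 fold change (MSL2KO over MSL2WT, vertical axis, with 95% intervals) of the genes of 4 interferon-inducible clusters in chromosomal order (horizontal axis). Filled points are called, open points are not, and crosses mark genes below the filter, which have no value; tested chromosome 3 GBP genes lie below 0 and tested chromosome 1 IFI200 genes above it.

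Immunity-related GTPases act on the same vacuoles. Igtp was at 14.2, 8.68 and 10.4 CPM in knockout libraries, against 11.4, 12.1 and 15.6 CPM in wild-type libraries (log2 fold change -0.24, adjusted p = 0.661). Irgm1, which restrains other GTPases of the family, was at 45.9, 45.6 and 43 CPM in knockout libraries, against 40.8, 44.1 and 50 CPM in wild-type libraries (log2 fold change -0.004, adjusted p = 0.993). Both overlapped between groups.

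The transcription factors of the response were present in both genotypes. Stat2, the STAT protein that binds IRF9, was at 21.9, 21.3 and 21.4 CPM in knockout libraries, against 25, 23.2 and 23 CPM in wild-type libraries. The groups did not overlap, by a small margin, and the log2 fold change was -0.14 ± 0.09 (SE, adjusted p = 0.543). Irf9, the DNA-binding partner of the STATs, was at 16.5, 16.5 and 15.7 CPM in knockout libraries, against 14.2, 15.7 and 16.1 CPM in wild-type libraries (log2 fold change 0.08, adjusted p = 0.814). Irf1, a first-wave factor of the interferon gamma response, was at 25.4, 24.6 and 20.1 CPM in knockout libraries, against 27.8, 27.7 and 27.3 CPM in wild-type libraries. All 3 knockout libraries were lower, with a log2 fold change of -0.24 ± 0.11 (SE, adjusted p = 0.309, edgeR).

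Irf7, which drives interferon alpha genes, was at 1.68, 2.49 and 1.52 CPM in knockout libraries, against 1.13, 1.41 and 1.13 CPM in wild-type libraries. All 3 knockout libraries were higher. The log2 fold change was 0.64 ± 0.31 (SE, adjusted p = 0.371, edgeR), an estimate from few reads that was 0.39 without knockout library 2.

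Among the antiviral effectors, Samd9l, a restriction factor of poxviruses, was nearest to a call in the higher direction. It was at 72.3, 52.6 and 52.9 CPM in knockout libraries, against 47.6, 41.3 and 45 CPM in wild-type libraries. The groups did not overlap, and knockout library 1 stood above the rest. The means were 59.3 ± 11 CPM in knockout and 44.6 ± 3.1 CPM in wild-type libraries (SD, n = 3 each). The log2 fold change was 0.41 ± 0.13 (SE, adjusted p = 0.112, edgeR). DESeq2 called it (adjusted p = 0.0433), and so did the fit without a filter on low counts (0.00222, at an unchanged log2 fold change of 0.41). Without knockout library 1 the log2 fold change was 0.24 (adjusted p = 0.251).

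Adar, which edits adenosine in double-stranded RNA, was at 49.7, 49.2 and 48.1 CPM in knockout libraries, against 56.2, 61.7 and 55.6 CPM in wild-type libraries. The groups did not overlap, and the log2 fold change was -0.24 ± 0.08 (SE, adjusted p = 0.127, edgeR). Eif2ak2, the kinase PKR that stops translation on double-stranded RNA, was at 49.9, 49.3 and 51.2 CPM in knockout libraries, against 52, 56.1 and 60.6 CPM in wild-type libraries (log2 fold change -0.17, adjusted p = 0.373). It too was lower without overlap. Bst2, tetherin, was at 20.1, 16.6 and 20.3 CPM in knockout libraries, against 25.1, 18.8 and 25.8 CPM in wild-type libraries (log2 fold change -0.29 ± 0.14, SE, adjusted p = 0.369). Isg20, an exonuclease, was at 7.34, 5.35 and 5.02 CPM in knockout libraries, against 8.69, 6.83 and 7.3 CPM in wild-type libraries (log2 fold change -0.36 ± 0.19, SE, adjusted p = 0.436). Bst2 and Isg20 overlapped between groups. Ifi35 was at 24.4, 27.1 and 24 CPM in knockout libraries, against 23.1, 23.8 and 27.2 CPM in wild-type libraries (log2 fold change 0.03, adjusted p = 0.946).

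The ISG15 system tags proteins with a ubiquitin-like modifier. Isg15 itself was at 0.933, 0.845 and 0.792 CPM in knockout libraries, against 0.848, 0.451 and 1.06 CPM in wild-type libraries, with overlap (log2 fold change 0.14, adjusted p = 0.933). Usp18, which removes ISG15 and damps receptor signalling, was at 2.43, 2.54 and 2.18 CPM in knockout libraries, against 2.4, 2.03 and 1.59 CPM in wild-type libraries (log2 fold change 0.25, adjusted p = 0.759). Trim25, a ubiquitin ligase acting with RIG-I, was at 52.2, 59 and 61.8 CPM in knockout libraries, against 61.6, 66.6 and 57.2 CPM in wild-type libraries (log2 fold change -0.10, adjusted p = 0.712). None of the 3 separated the groups.

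The cytoplasmic RNA sensors also overlapped between groups. Ddx58, which encodes RIG-I, was at 38.6, 27.1 and 23.4 CPM in knockout libraries, against 28.9, 31.6 and 28.7 CPM in wild-type libraries, so that the knockout libraries spanned the wild-type ones (log2 fold change -0.003, adjusted p = 0.997). Ifih1, which encodes MDA5, was at 15.5, 13.9 and 10 CPM in knockout libraries, against 12.4, 9.87 and 14.1 CPM in wild-type libraries (log2 fold change 0.12, adjusted p = 0.859). Dhx58, the regulator LGP2, was at 3.79, 2.63 and 3.17 CPM in knockout libraries, against 3.6, 2.43 and 2.85 CPM in wild-type libraries (log2 fold change 0.11, adjusted p = 0.913). In all 3, knockout library 1 was the highest of the knockout libraries.

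Ifit2 was the member of its family with enough reads for a test, while Ifit1 and Ifit3 beside it on chromosome 19 were not. It was at 37.6, 32.2 and 30.2 CPM in knockout libraries, against 31.2, 27.5 and 35.7 CPM in wild-type libraries (log2 fold change 0.09, adjusted p = 0.841). Of the oligoadenylate synthetases, Oas1a was at 3.3, 2.96 and 2.97 CPM in knockout libraries, against 3.39, 2.6 and 3.05 CPM in wild-type libraries (log2 fold change 0.03, adjusted p = 0.975). Oas3 was at 1.18, 1.03 and 0.264 CPM in knockout libraries, against 1.27, 1.07 and 0.863 CPM in wild-type libraries, and its interval of -1.37 to 0.69 leaves a change of more than 2-fold possible. Ifit2, Oas1a and Oas3 overlapped between groups.

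Parp9 and Parp14 are members of the ADP-ribosyltransferase family with macrodomains. Parp9 was at 55.9, 50.6 and 49.4 CPM in knockout libraries, against 46.3, 48.1 and 51.2 CPM in wild-type libraries (log2 fold change 0.10, adjusted p = 0.687). Parp14 was at 32.2, 33.8 and 34.4 CPM in knockout libraries, against 37.5, 37.3 and 37.8 CPM in wild-type libraries. Parp14 was lower in all 3 knockout libraries, by a log2 fold change of -0.17 ± 0.08 (SE, adjusted p = 0.358), and Parp9 overlapped between groups.

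**Figure D4:**
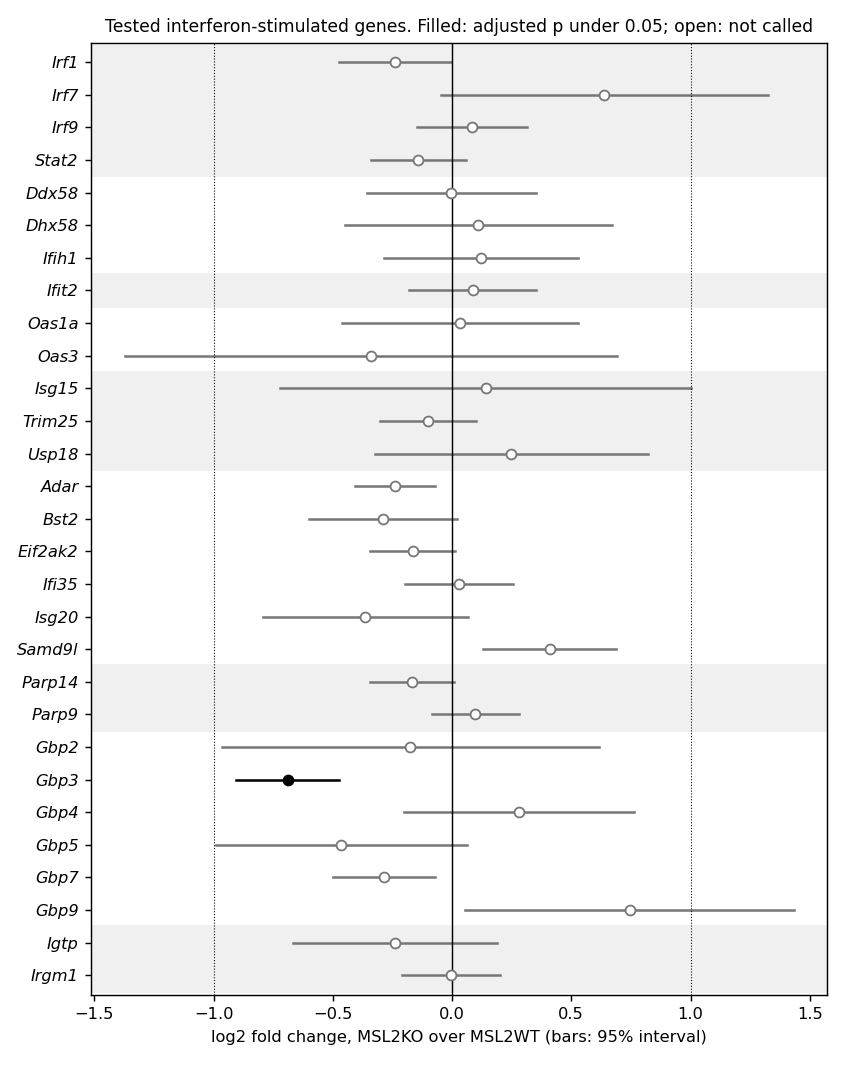
Log2 fold change (MSL2KO over MSL2WT, horizontal axis) of the 29 tested members with 95% intervals, grouped by role in shaded bands, with dotted lines at a 2-fold change. Gbp3 at -0.69 is the filled point (adjusted p under 0.05), and the intervals of Irf7, Gbp9, Oas3 and Isg15 pass a dotted line.

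The genes for the interferons themselves, which start the response, had few reads. Of 21 genes for type I, II and III interferons, 0 passed the filter and 16 had no read in any library. The whole list had 14 reads in the knockout libraries and 14 in the wild-type libraries together. How reads matching several of the similar interferon alpha genes were counted is not given, so such reads may be missing from these counts.

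The receptors and their signalling chain were all present, and 19 of 19 genes were tested. Of these, 0 were called higher and 1 lower (5.26%, beside 4.59% of all tested genes), and 14 had a positive log2 fold change, with a median of 0.10. Socs3, a feedback inhibitor of JAK kinases, was at 3.17, 2.72 and 2.64 CPM in knockout libraries, against 5.86, 5.02 and 4.78 CPM in wild-type libraries. All 3 knockout libraries were lower, by a log2 fold change of -0.87 ± 0.20 (SE, adjusted p = 0.0399, edgeR). Socs3 lost the call when any 1 of the 6 libraries was left out (adjusted p from 0.0572 to 0.153).

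The type I receptor subunit Ifnar1 was at 51.4, 48.8 and 46.7 CPM in knockout libraries, against 50.5, 47.2 and 47.2 CPM in wild-type libraries (log2 fold change 0.02, adjusted p = 0.953). The other subunit, Ifnar2, was at 13.6, 13 and 13.3 CPM in knockout libraries, against 14.1, 13 and 15.9 CPM in wild-type libraries (log2 fold change -0.10, adjusted p = 0.786). Both overlapped between groups. Jak1, a kinase of both receptor types, was at 276, 229 and 227 CPM in knockout libraries, against 206, 198 and 189 CPM in wild-type libraries, without overlap (log2 fold change 0.30 ± 0.09, SE, adjusted p = 0.101, edgeR). Tyk2 had a log2 fold change of 0.15 (adjusted p = 0.494). Ifngr1 and Ifngr2, the subunits of the interferon gamma receptor, were higher in the knockout libraries without overlap, and neither was called. Their log2 fold changes were 0.28 (adjusted p = 0.26, edgeR) and 0.39 (adjusted p = 0.058, edgeR). When 1 library was left out, the adjusted p of Ifngr2 was between 0.0179 and 0.196 (edgeR). Ifnlr1, a subunit of the type III receptor, had the largest change of the list after Socs3, a log2 fold change of 0.47 ± 0.31 (SE, adjusted p = 0.565).

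Of 25 genes that sense nucleic acid or induce interferon, 21 were tested and 2 were called (9.52%, beside 4.59% of all tested genes). This list, like the other lists of genes outside the members, was drawn up with earlier results of these data known. The endosomal RNA sensor Tlr7 was at 19.7, 20 and 21.8 CPM in knockout libraries, against 0.353, 2.6 and 0.332 CPM in wild-type libraries (log2 fold change 4.13 ± 0.46, SE, adjusted p = 0.00073, edgeR). Wild-type library 2 was the highest of its group, and the log2 fold change without it was 5.87. Irf3, the factor that switches on interferon beta, had a log2 fold change of 0.05 (adjusted p = 0.869).

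A longer list of 65 further interferon-stimulated genes had 48 tested, of which 3 were called higher and 2 lower (10.4%, beside 4.59% of all tested genes, 1.8% higher and 2.79% lower). Of the 48, 33 had a positive log2 fold change, as had 6666 of all 13077 tested genes, and the median was 0.09, beside 0.004 over all tested genes. Ifit1bl1, an Ifit1-like gene, was at 27.1, 17 and 15.9 CPM in knockout libraries, against 4.31, 5.47 and 5.84 CPM in wild-type libraries. Its means were 20.02 ± 6.2 CPM in knockout and 5.21 ± 0.8 CPM in wild-type libraries (SD, n = 3 each). They differed 3.83-fold (log2 fold change 1.94 ± 0.22, SE, adjusted p = 0.000792, edgeR). Its annotated span of chromosome 19, 34592888 to 34662981, contains that of Ifit1, which had 0 to 1 read per library. Without strand or exon detail, reads from elsewhere in that span cannot be told apart from it.

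Ifi209, listed under its older symbol Pyhin1, is a DNA-binding protein of the IFI200 family. It was at 56.3, 47.9 and 49.4 CPM in knockout libraries, against 20.6, 29.4 and 21.8 CPM in wild-type libraries, a 2.13-fold difference without overlap (log2 fold change 1.09 ± 0.14, SE, adjusted p = 0.00149, edgeR). Plscr1, a phospholipid scramblase, was at 20.3, 18.5 and 18.5 CPM in knockout libraries, against 11.2, 12.5 and 10.7 CPM in wild-type libraries (log2 fold change 0.73 ± 0.11, SE, adjusted p = 0.00422, edgeR). Both called genes separated the groups.

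Ifi27, a mitochondrial protein, was the most reduced of the list. It was at 0.684, 1.22 and 0.462 CPM in knockout libraries, against 5.58, 6.88 and 6.77 CPM in wild-type libraries (log2 fold change -2.96 ± 0.32, SE, adjusted p = 0.000596, edgeR). Its span on chromosome 12 overlaps that of Ifi27l2a, which was not called (log2 fold change -0.70, adjusted p = 0.327), so reads may be shared. Shisa5, a protein of the endoplasmic reticulum, was at 20.6, 18.7 and 17.4 CPM in knockout libraries, against 27.2, 30.9 and 25.3 CPM in wild-type libraries (log2 fold change -0.56 ± 0.11, SE, adjusted p = 0.0169, edgeR). That call was lost without knockout library 2 (0.0663), knockout library 3 (0.0608) or wild-type library 2 (0.0687).

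Around Ifi209 on chromosome 1, the IFI200 genes run from Aim2 to Ifi205, and 7 of the 11 were tested. All 7 had a positive log2 fold change, with a median of 0.50, and Ifi209 and Ifi208 were called. Ifi208 was at 8.71, 7.14 and 6.93 CPM in knockout libraries, against 3.46, 3.67 and 2.72 CPM in wild-type libraries (log2 fold change 1.20 ± 0.20, SE, adjusted p = 0.00572, edgeR). Mndal had a log2 fold change of 0.40 (adjusted p = 0.0572), and Aim2, the inflammasome sensor of DNA at the end of the cluster, one of 0.06 (adjusted p = 0.83). Summed over the cluster, the level was 212, 190 and 188 CPM in knockout libraries, against 140, 159 and 142 CPM in wild-type libraries, without overlap. These genes are also similar in sequence, and how reads were shared among them is not given.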

How the data were processed

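The 6 RNA tables deposited by the authors hold raw counts per gene, which are whole numbers, per the file headers. Per the labels' protocols, total RNA was depleted of ribosomal RNA. Per the submitters' processing notes, the build was mm10 and the tools included featureCounts 2.0.0 and STAR 2.5.3a, without role or order. Not given in the sources used here are the strand setting, the annotation release and how multiply matching reads were treated. Chromatin immunoprecipitation and input samples (9) were not used here.

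Versioned identifiers were paired with symbols through a table of gene names (55154 of 55335), and positions came from RefSeq (GRCm38.p6, which is mm10) by symbol. The function filterByExpr kept 13077 genes, and after TMM scaling these were tested with edgeR 4.0.16 (quasi-likelihood, no covariate) in R 4.3.3, with Benjamini-Hochberg adjustment over all tested genes and a call at an adjusted p under 0.05. The biological coefficient of variation was 0.109. The SE was derived from the fold change and the F statistic. Every pair of libraries differed by more than counting noise (chi-square per degree of freedom, 6.53 to 29.6). Intervals of fold changes include the spread between libraries, and floors of 3 reads cover counting error only.

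The members, the companion lists and the tests were chosen with earlier results of these data known. Members that were called, that reached an unadjusted p under 0.05 or that changed most were to be given in full, and from each companion list the called genes, those with the largest change and a few receptors and factors; some others are named outside this rule, chosen after their values were seen. Values of a few genes outside the members are not reported here. On simulated counts (12811 genes tested), 8 of 12613 unchanged genes were called. Alternatives were other scalings, filters, DESeq2 1.42.0, limma-voom 3.58.1, a replicate block, and leaving out libraries.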

Additional observations from a re-analysis of the deposited data

How the results depend on the processing

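Gbp3 kept its call in every alternative run (log2 fold change from -0.78 to -0.63 when 1 library was left out), while counts of calls moved. Without a filter on low counts, 482 genes were called higher and 721 lower among 26696 tested, in place of 235 and 365 among 13077. The share called was 4.59% in the main run and 4.51% without the filter. In that unfiltered fit, 2 members were called higher (Samd9l, Gbp9) and 2 lower (Gbp3, Gbp7). It also called 2 receptor and JAK-STAT genes higher, and 6 further interferon-stimulated genes higher. With DESeq2, 1 member (Samd9l), 3 receptor and JAK-STAT genes (Jak1 among them) and 5 further genes were called higher. With library totals only, 1 receptor or JAK-STAT gene was called higher and 0 lower. At a mean log2 CPM of at least 2, 9635 genes were tested, 23 members among them, and 4.07% of the genes were called. There, 231 genes and 1 further interferon-stimulated gene were called lower. The median log2 fold change was -0.14 over these 23 members, in place of -0.004 over 29. The members no longer tested there were Irf7, Isg15, Usp18, Dhx58 and Oas1a, with positive log2 fold changes in the main run, and Oas3, with a negative one. Without both libraries numbered 2, 224 genes, 0 receptor and JAK-STAT genes and 1 further gene were called lower. Leaving out 1 library at a time gave 138 to 227 genes higher and 242 to 316 lower. Of the members, 0 to 1 were called higher (Gbp9 without wild-type library 2). These runs also called 0 to 1 receptor and JAK-STAT genes in each direction and 1 to 3 further genes lower. The cause of the shifts in calls was not tested.

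With the replicate block, 381 genes were called higher and 565 lower, with 1 member higher (Samd9l) and 3 receptor and JAK-STAT genes higher. Whether the numbers pair the libraries is not settled. Same-numbered libraries correlated at 0.06, 0.23 and 0.44 in their deviations from the group means. Differently numbered ones correlated at 0.265, -0.317, -0.007, -0.207, -0.049 and -0.404.

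Signs turned only for uncalled genes (adjusted p of at least 0.393 throughout). Among them were Gbp2 and Oas3, with log2 fold changes of -0.18 and -0.34 in the main run. Without both libraries numbered 2 the log2 fold change was -0.14 for Isg15, -0.051 for Ifi35, -0.051 for Ifih1, 0.11 for Ddx58, -0.034 for Oas1a and 0.49 for Gbp2. Ddx58 was at 0.002 with RLE scaling, 0.015 with library totals, 0.002 with the stricter filter and 0.003 with DESeq2. Irgm1 was at 0.001, 0.018, 0.002 and 0.001 there, and at 0.001 with limma-voom. Leaving out 1 library gave -0.16 to 0.43 for Isg15, -0.009 to 0.19 for Ifit2, -0.02 to 0.11 for Ifi35, -0.013 to 0.28 for Ifih1, -0.23 to 0.14 for Ddx58, -0.03 to 0.27 for Dhx58, -0.069 to 0.12 for Oas1a, -0.64 to 0.051 for Oas3, -0.42 to 0.47 for Gbp2, -0.07 to 0.08 for Irgm1 and -0.015 to 0.055 for Ifnar1.

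Depth limits the 12 members below the filter most, since they had at most 16 reads in a library.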

Other observations

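The oligoadenylate synthetase cluster on chromosome 5 had 4 tested genes of 10. Besides Oas3 and Oas1a, Oas1c had a log2 fold change of 0.19 and Oas1b one of -0.21, so that the cluster held 2 positive and 2 negative values, with a median of -0.09. Summed over the cluster, the level was 11.1, 8.54 and 7.52 CPM in knockout libraries, against 10.4, 8.97 and 8.49 CPM in wild-type libraries, and the groups overlapped.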
